A study of Mus musculus with 60 samples.

Results

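The RNA of the ventral hippocampus of mice differed from Homecage 45 minutes after a swim. The data described here are the comparison of ventral Swim with ventral Homecage, 10 of the 60 libraries of the series, with 5 libraries in each group and 13758 genes. The members are every gene of that comparison, 1 entry for each gene ID. All groups used here are wild-type C57BL/6 mice at postnatal day 105. Homecage, a condition the labels name without further detail, is the reference, and Swim tissue was taken 45 minutes after the treatment. Dorsal Swim and whole-hippocampus Swim, each with its own 5 Homecage libraries, and ventral Restraint, which shares the ventral Homecage libraries, serve as comparisons. Some values are also given for Handling and for Restraint in other parts, likewise 45 minutes after the treatment and against the Homecage libraries of their part. The record of the series puts 5 mice in every condition; whether 1 mouse gave both a dorsal and a ventral library is not stated in the labels.

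The ventral hippocampus is the part that connects to the amygdala, hypothalamus and prefrontal cortex, and it is tied to anxiety and to the control of the stress axis. An acute stressor reaches it by several routes. Firing neurons switch on immediate early genes through calcium, MAP kinase and the factors CREB and SRF, which sit on their promoters before the stimulus. Corticosterone, which peaks in the brain later than the first neuronal activity, acts through the mineralocorticoid and glucocorticoid receptors, which bind DNA as hormone arrives. Endothelial cells of brain vessels have early genes of their own that answer to blood flow and circulating factors.

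Poly(A)-enriched RNA was sequenced, and the authors' deposited table gives for each gene the mean estimated count of either group, a scaled fold change, its log2 value, a p-value and an adjusted p. The group means sum to 25.01M counts in Homecage and 24.54M in Swim, and no gene is listed with a sum of both means under 22.0. Each gene therefore has a level in 2 groups rather than in 10 libraries, and the spread between mice enters through the authors' p alone. A gene is said to have risen or fallen where the adjusted p is under 0.05. Of 12 ventral hippocampus markers, 11 were called higher in ventral than in dorsal Homecage tissue in the authors' deposited table, where 18.4% of all genes were, and their median log2 difference was 1.95.

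In the authors' deposited table, 955 genes passed, which is 6.94% of those tested, 640 higher after swim (4.65%) and 315 lower (2.29%). The fold changes followed the base composition of the transcripts. Across 13728 genes with a known GC content, Spearman's rank correlation between log2 fold change and transcript GC content was 0.696, a description across genes, which are not independent replicates. Median log2 fold changes ran from -0.11 in the GC-poorest of 5 equal bins to 0.15 in the GC-richest. Of the risen genes 507 lay in the GC-richest bin and 6 in the GC-poorest, and of the fallen genes 5 and 234. Mean transcript GC content weighted by counts was 50.48% in ventral Homecage and 50.83% in ventral Swim. In dorsal tissue it moved the other way, from 50.95% in Homecage to 50.65% in Swim, and the rank correlation there was -0.599. In whole hippocampus the rank correlation was 0.298 for Swim, 0.268 for Restraint and -0.269 for Handling. Against the same ventral Homecage libraries it was 0.449 for Handling and 0.385 for Restraint. In dorsal tissue these treatments gave -0.342 and -0.474. Mean GC content was lower in ventral Homecage than in every treated ventral group, and higher in dorsal Homecage than in every treated dorsal group. How much of the trend lies in the Homecage libraries was not tested. Whether the trend arose in the tissue or in making the libraries was not tested, and with group means only the 2 cannot be told apart.

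**Figure D1:**
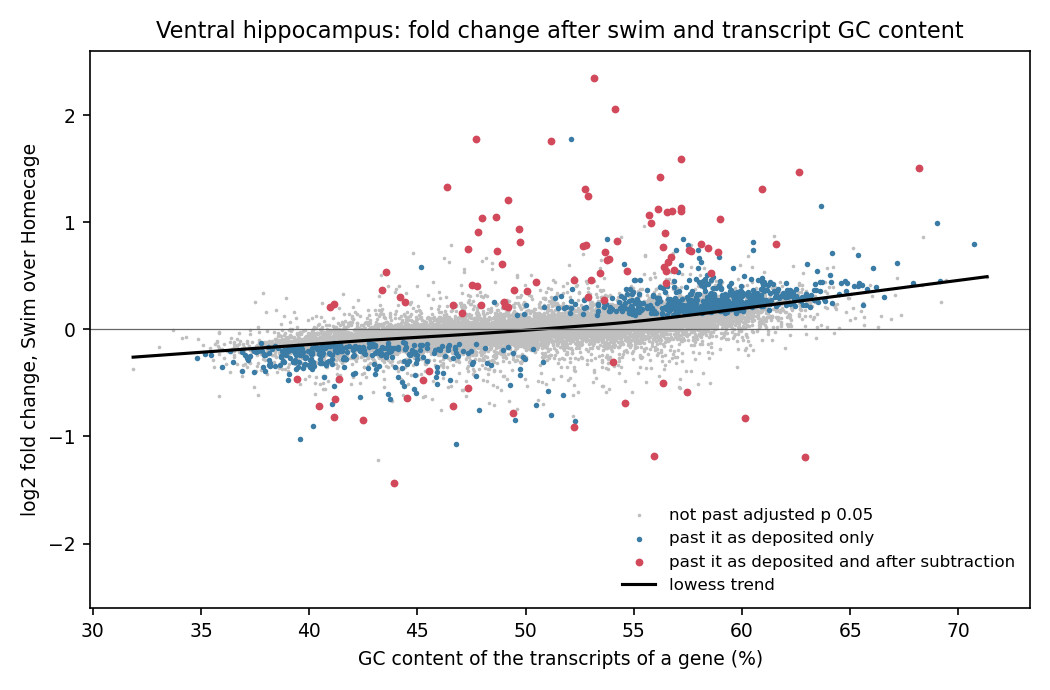
Log2 fold change of each gene in ventral hippocampus, Swim over Homecage (vertical axis), against the GC content of its transcripts in percent (horizontal axis), with the lowess trend as a black line. Grey points did not pass an adjusted p of 0.05, blue points passed as deposited only, and the 95 red points passed as deposited and after the trend was subtracted. The blue points follow the trend and the red ones mostly lie far off it, which follows in part from how they were called.

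A second set of values was therefore computed in which the lowess trend on GC content was subtracted, the error was kept and the p-values were adjusted again. It leaves 111 genes, 0.807% of those tested, 76 higher (0.552%) and 35 lower (0.254%). Of these, 95 passed both as deposited and after subtraction, 73 higher and 22 lower. Their median absolute log2 fold change was 0.72, against 0.24 for the 567 risen and 293 fallen genes that passed as deposited only. Since each error was kept, small changes lose their call more readily, and this gap follows in part from the method. The 16 genes that passed after subtraction only were 3 higher and 13 lower. Among all called genes in the authors' deposited table, 24 rose by at least 1 on the log2 scale and 5 fell by as much. Calls in ventral tissue are given on both scales below, the deposited value first.

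Immediate early and hormone-responsive genes stand at the top of those that passed both ways, and the promoter windows of 8 are shown because such genes are known to be switched on through CREB, SRF and corticosteroid receptor sites. They are the called genes of lowest adjusted p whose RefSeq window, 250 bases before to 50 after a start site (build GRCm38.p6), holds a searched motif, and where a gene has several windows the one with the most kinds of motif was taken. The windows are Fos (chr12:85473640-85473939, plus strand), Fosb (chr7:19309996-19310295, minus strand), Nr4a1 (chr15:101266596-101266895, plus strand), Per1 (chr11:69098699-69098998, plus strand), Sgk1 (chr10:21993640-21993939, plus strand), Egr2 (chr10:67537619-67537918, plus strand), Apold1 (chr6:134981751-134982050, plus strand) and Dusp1 (chr17:26508423-26508722, minus strand). Each is written 5′ to 3′ along the gene, and capitals mark the motifs found on either strand.
Fos: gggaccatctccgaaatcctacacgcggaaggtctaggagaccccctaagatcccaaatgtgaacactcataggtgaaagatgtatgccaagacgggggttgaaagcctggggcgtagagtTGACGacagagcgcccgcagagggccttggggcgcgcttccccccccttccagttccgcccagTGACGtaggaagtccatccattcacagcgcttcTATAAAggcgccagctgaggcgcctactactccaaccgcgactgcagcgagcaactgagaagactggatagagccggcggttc
Fosb: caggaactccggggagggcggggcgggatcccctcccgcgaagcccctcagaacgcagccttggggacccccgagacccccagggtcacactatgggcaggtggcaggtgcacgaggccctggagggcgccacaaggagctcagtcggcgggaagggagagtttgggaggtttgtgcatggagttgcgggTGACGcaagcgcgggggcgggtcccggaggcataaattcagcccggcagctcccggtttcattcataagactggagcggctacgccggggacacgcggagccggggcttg
Nr4a1: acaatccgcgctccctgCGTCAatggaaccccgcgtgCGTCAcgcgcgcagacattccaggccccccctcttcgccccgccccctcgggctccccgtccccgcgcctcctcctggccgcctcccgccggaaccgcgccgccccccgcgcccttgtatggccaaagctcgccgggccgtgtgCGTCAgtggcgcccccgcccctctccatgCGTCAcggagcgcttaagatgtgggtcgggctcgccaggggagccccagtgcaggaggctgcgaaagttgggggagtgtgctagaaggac
Per1: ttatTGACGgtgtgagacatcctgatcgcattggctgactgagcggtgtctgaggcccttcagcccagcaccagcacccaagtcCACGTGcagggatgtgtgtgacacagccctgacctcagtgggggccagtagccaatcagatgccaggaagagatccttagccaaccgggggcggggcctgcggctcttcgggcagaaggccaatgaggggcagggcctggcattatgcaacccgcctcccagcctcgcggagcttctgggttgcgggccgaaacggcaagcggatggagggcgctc
Sgk1: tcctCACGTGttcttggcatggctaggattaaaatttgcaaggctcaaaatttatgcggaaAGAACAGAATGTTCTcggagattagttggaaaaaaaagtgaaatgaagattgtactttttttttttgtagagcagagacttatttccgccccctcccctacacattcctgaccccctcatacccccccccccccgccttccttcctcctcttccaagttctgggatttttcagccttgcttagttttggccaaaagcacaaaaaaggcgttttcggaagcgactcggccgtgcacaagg
Egr2: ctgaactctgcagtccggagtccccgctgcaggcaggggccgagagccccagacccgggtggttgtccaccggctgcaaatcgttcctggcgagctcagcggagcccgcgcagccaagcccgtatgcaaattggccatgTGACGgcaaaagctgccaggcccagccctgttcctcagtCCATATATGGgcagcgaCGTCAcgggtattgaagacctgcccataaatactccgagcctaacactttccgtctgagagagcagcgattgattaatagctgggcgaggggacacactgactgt
Apold1: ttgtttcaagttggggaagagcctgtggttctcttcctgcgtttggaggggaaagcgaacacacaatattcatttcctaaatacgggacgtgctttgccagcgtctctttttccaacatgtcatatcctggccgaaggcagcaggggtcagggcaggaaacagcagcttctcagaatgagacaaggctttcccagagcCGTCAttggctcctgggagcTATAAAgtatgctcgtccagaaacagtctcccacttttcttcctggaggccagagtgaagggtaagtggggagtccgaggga
Dusp1: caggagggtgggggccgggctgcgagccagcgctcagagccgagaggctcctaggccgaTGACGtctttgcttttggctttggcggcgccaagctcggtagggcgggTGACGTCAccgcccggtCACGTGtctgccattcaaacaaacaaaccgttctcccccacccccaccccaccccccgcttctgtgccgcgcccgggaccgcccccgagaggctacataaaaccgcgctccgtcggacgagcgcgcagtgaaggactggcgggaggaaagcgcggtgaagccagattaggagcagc

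The letters searched were the full cyclic AMP response element TGACGTCA, its core TGACG (which the full element contains), the TATA motif TATAAA, the E-box CACGTG, the CArG box bound by SRF, and the palindromic glucocorticoid response element in capitals in Sgk1, with its 3-base spacer and 1 base of the second arm left free, on both strands. In Fos the core lies at -66 to -62 and again at -129 to -125, counted from the start site, with TATAAA at -33 to -28. Egr2 holds a CArG box at -72 to -63 between 2 cores. Dusp1 has the full element at -143 to -136 and an E-box at -126 to -121. Sgk1 holds the glucocorticoid response element at -189 to -175, and 2 of 10555 genes with a promoter window have these letters at all.

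Of the risen genes called both ways, 59 had a promoter window, and 8 of them (13.6%) held the full element, against 3.55% of the 10555 genes. The core was in 34 of 59 (57.6%) against 34.5%, and TATAAA in 14 of 59 (23.7%) against 8.68%. Among 434 risen genes called as deposited only, the shares were 3.69%, 31.3% and 6.22%. Of 17 fallen genes called both ways, 2 held the full element (11.8%), 5 the core (29.4%) and 2 TATAAA (11.8%). The E-box was in 9 of the 59 (15.3%) and 3 of the 17 (17.6%), against 11.5% of all genes with a window. The CArG box was in 2 of the 59 (3.39%) and 1 of the 17 (5.88%), against 1.59%. The glucocorticoid response element was in 1 of the 59. A gene counts where any of its windows matches; per window the full element was in 9.88% for the genes called both ways and 2.95% over all 13635 windows. A match describes letters in a window and says nothing of binding.

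Transcription factors of the AP-1 family, dimers of Fos, Jun, Atf and Maf proteins, gave the clearest group. Of 10 measured members 8 rose and 0 fell in the authors' deposited table, with a median log2 fold change of 1.02 against -0.005 over all genes, and 7 rose after subtraction. Fos went from a mean of 138.8 counts in Homecage to 561.2 in Swim in the authors' deposited table, a log2 fold change of 2.06 with an implied standard error of 0.12 and an adjusted p of 3.4e-57. After subtraction it was 2.00.

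Fosb went from 141.0 to 370.0 counts, or 1.42 on the log2 scale, and Junb from 351.6 to 956.4, or 1.46, in the authors' deposited table. Subtraction gave 1.32 and 1.20. The low-count members Atf3, a stress-induced repressor, and Maff, a small Maf protein, rose by 1.75 and 1.59 in the authors' deposited table, and both passed after subtraction. Mafk (0.55) and Fosl2 (0.28) rose less there and also passed both ways. Jund, with transcripts of 67.1% GC, rose by 0.62 in the authors' deposited table, and its subtracted value of 0.24 did not pass. Jun and the repressor Jdp2, at 0.15 and 0.13 in the authors' deposited table, passed neither way. The members called both ways were thus Fos, Fosb, Junb, Fosl2, Atf3, Maff and Mafk.

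The Egr zinc finger factors, which SRF and its partners switch on, had the same called and uncalled members on both scales. In the authors' deposited table Egr2 went from 22.4 to 111.6 counts, the largest log2 change of the family at 2.35 (implied standard error 0.18), and Egr1 from 1606 to 3111, at 0.99 (0.07). Egr4 and Egr3 rose by 1.504 and 0.52 there. All 4 passed after subtraction, at 2.31, 0.90, 1.10 and 0.48. The corepressors Nab1 and Nab2, which bind Egr proteins and restrain them, stood at -0.10 and 0.10 in the authors' deposited table and passed neither way.

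Among orphan nuclear receptors of the Nr4a family, Nr4a1 rose from 961.8 to 2038 counts and Nr4a3 from 1908 to 2404 in the authors' deposited table, log2 fold changes of 1.12 and 0.36. Both passed after subtraction, at 1.03 and 0.38. Nr4a2, which marks subicular and deep cortical neurons, stood at 1924 and 1919 counts in the authors' deposited table and did not pass. Npas4, a factor that neurons make in response to calcium entry and that shapes inhibitory synapses, rose from 196.8 to 330.6 there, or 0.77, and was at 0.67 after subtraction.

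Of 29 other early transcription factors, a list that counts Maff again, 13 rose and 1 fell in the authors' deposited table, and 10 rose and 0 fell after subtraction. Btg2, an antiproliferative cofactor, rose by 0.81, Ier2 by 1.31 and Csrnp1 by 0.79 in the authors' deposited table, and all 3 passed both ways. Klf2, a factor that vessel walls make under flow, rose from 71.4 to 121.6 counts there, or 0.80, with 0.56 after subtraction. The median over these 29 genes was 0.28 as deposited and 0.16 after subtraction.

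Effector genes that neurons make after activity rose in 20 of 37 cases and fell in 0 in the authors' deposited table, and 14 rose after subtraction. Arc, which loads its own RNA into capsids and removes AMPA receptors from synapses, went from 1791 to 3591 counts there, or 1.03, with 0.87 after subtraction. The small GTPase Arl4d rose from 100.8 to 206.8 counts in the authors' deposited table, a log2 change of 1.06. Cdkn1a, a cell cycle inhibitor, Trib1, a pseudokinase, and Plk3, a stress-activated kinase, rose by 0.73, 0.66 and 0.52 in the authors' deposited table, and all 3 passed after subtraction.

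Homer1, whose short activity-induced form loosens synaptic scaffolds, passed after subtraction only. It was at 2307 counts in Homecage and 2466 in Swim in the authors' deposited table, 0.13 on the log2 scale, and its transcripts are GC-poor at 42.0%. The subtracted value was 0.24, with an adjusted p of 9.3e-04. Bdnf, the activity-dependent neurotrophin, stood at 741.8 and 728.6 counts in the authors' deposited table, and none of the 11 measured neurotrophins and receptors passed on either scale, where 6.94% and 0.807% of all genes did. Homer1 and the small GTPase Arl5b, with Dennd1a, an exchange factor for Rab GTPases, make up the 3 higher genes that passed after subtraction only; the 3 were named after their values were seen.

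Some genes that restrain these signals rose. Of 17 MAP kinase phosphatases and feedback genes 5 rose in the authors' deposited table and 4 after subtraction, with list medians of 0.10 and 0.05. Dusp1, the nuclear phosphatase whose promoter is shown above, went from 299.6 to 503.2 counts in the authors' deposited table, or 0.79. Dusp5 and Dusp6, which act on ERK, rose by 0.67 and 0.61, and Errfi1, an inhibitor of the EGF receptor, by 0.41 there. All 4 passed both ways. Spry1 rose by 0.38 in the authors' deposited table, with a subtracted value of 0.28 that did not pass, and Dusp4 stood at 0.27 with an adjusted p of 0.0501.

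Sik1, a kinase induced through CREB that exports CREB's coactivators from the nucleus, rose from 231.2 to 479.4 counts in the authors' deposited table, or 1.09, and was at 0.99 after subtraction. It was the 1 member of 12 in the CREB circuit that passed after subtraction. The coactivators Crtc1 and Crtc3 rose by 0.21 and 0.20 in the authors' deposited table, and their subtracted values of 0.09 and 0.17 did not pass. Creb1 itself was at -0.17 there and did not pass.

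**Figure D2:**
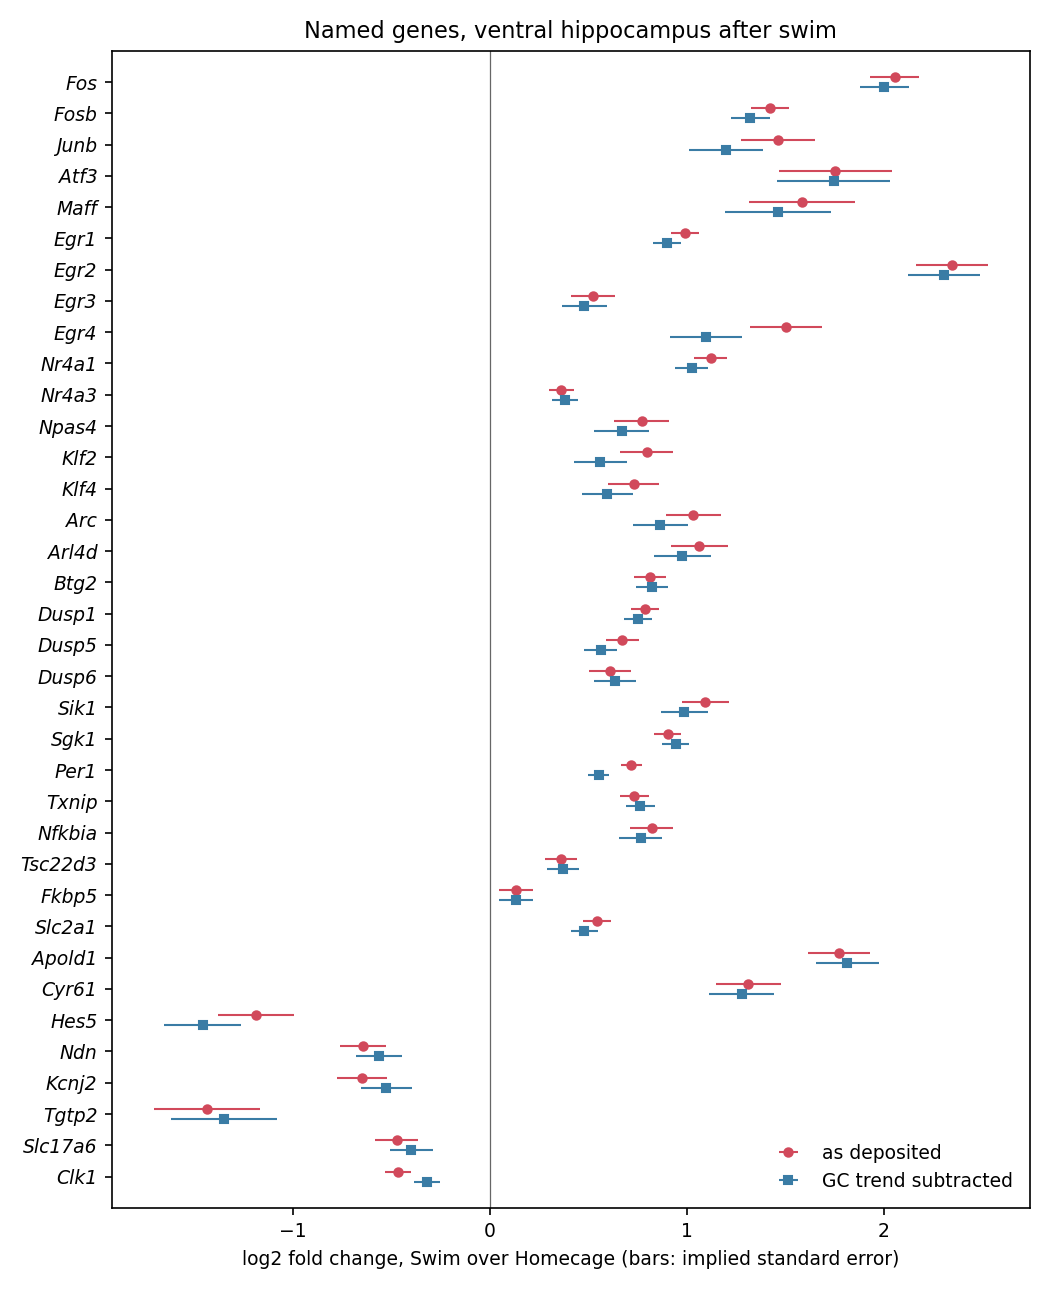
Log2 fold change, Swim over Homecage, in ventral hippocampus (horizontal axis) for genes named in the text (vertical axis), as deposited (red circles) and after the GC trend was subtracted (blue squares), with bars for the implied standard error. The early genes at the top lie above 0 on both scales, with Egr2 at 2.35 and 2.31 and Nr4a3 at 0.36 and 0.38, Fkbp5 is at 0.13 on both, and the 6 fallen genes at the bottom lie below 0 on both.

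Genes that glucocorticoid receptors are known to regulate rose in 16 of 35 cases and fell in 0 in the authors' deposited table, their median being 0.25, and 11 rose after subtraction. Sgk1, a corticosteroid-induced kinase that acts on channels and transporters, went from 1033 to 1896 counts there, or 0.90 with an implied standard error of 0.07. After subtraction it was 0.94, with an adjusted p of 8.4e-39. Per1, a clock gene that the receptor and CREB both switch on, rose from 1866 to 2996 counts in the authors' deposited table, or 0.72, with 0.55 after subtraction.

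Nfkbia, the inhibitor that holds NF-kB in the cytoplasm, rose from 293.0 to 505.8 counts in the authors' deposited table, or 0.82. Arrdc2, an arrestin relative, rose by 0.76 there, and both genes passed after subtraction. Tsc22d3, an anti-inflammatory leucine zipper protein named after its value was seen, rose by 0.36 in the authors' deposited table and was at 0.37 after subtraction. The list overlaps the early genes, since Per1, Dusp1 and others sit in both. Fkbp5, the chaperone gene that hormone induces over hours, was at 1667 and 1782 counts in the authors' deposited table and did not pass (0.13, adjusted p 0.36). The response at 45 minutes held Sgk1, Per1 and Nfkbia and not Fkbp5 on either scale.

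The receptors themselves did not pass. Nr3c1, the glucocorticoid receptor, stood at 2283 and 2143 counts and Nr3c2, the mineralocorticoid receptor, at 3733 and 3855 in the authors' deposited table, log2 fold changes of -0.06 and 0.08. Of 18 receptors and chaperones, 1 rose and 1 fell there, the latter being the cochaperone Ptges3 at -0.17, and 0 passed after subtraction. Among 21 clock genes 4 rose and 2 fell in the authors' deposited table, and 2 rose after subtraction, Per1 and Bhlhe40 (0.25 as deposited, 0.28 after). Per2 (0.21) and Ciart (0.37) rose and Rora (-0.33) and Hlf (-0.14) fell in the authors' deposited table only.

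Txnip, which binds thioredoxin and slows glucose uptake, went from 430.6 to 695.6 counts in the authors' deposited table, or 0.73, and was at 0.76 after subtraction. Slc2a1, the glucose transporter of brain endothelium and astrocytes, rose by 0.55 and Arrdc3 by 0.21 in the authors' deposited table. Each passed both ways, and with Arrdc2 they make 4 of 19 in the list of Txnip, arrestin relatives and glucose uptake on either scale. Hk1 and Arrdc4 were at 0.13 and 0.23 in the authors' deposited table and passed neither way.

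A few early genes of vessel walls rose. In the authors' deposited table Apold1, an endothelial early gene, went from 52.6 to 175.8 counts, a log2 fold change of 1.77 with an implied standard error of 0.16. Cyr61, a secreted matrix-associated growth regulator, rose from 61.8 to 149.2 there, or 1.31, Klf4 by 0.73 and the matrix protease Adamts1 by 0.44. In all 6 of 24 rose and 1 fell in the authors' deposited table, and 5 rose and 0 fell after subtraction, Apold1 at 1.82. The list median was 0.06 as deposited, and 11 of the 24 values lay below 0. Of 16 endothelial cell markers 0 passed on either scale, where 6.94% and 0.807% of all genes did. Their summed level was 501 CPM (counts per 1M) in Homecage and 504 in Swim. Of 10 pericyte and smooth muscle markers 1 rose, Cspg4 at 0.21 in the authors' deposited table, and 0 after subtraction.

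Falls that passed both ways were fewer, 22 genes. Hes5, a repressor that Notch signalling switches on in astrocytes and progenitors, went from 188.2 to 79.8 counts in the authors' deposited table, a log2 change of -1.19 with an implied standard error of 0.19. Its transcripts are GC-rich at 62.9%, against the trend, and the subtracted value was -1.46. The other Notch genes did not follow: of 25 measured, 3 rose in the authors' deposited table, Numbl, Jag2 and Notch4 at 0.36 each, and 0 of them passed after subtraction.

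Ndn, which encodes the growth suppressor necdin from a paternally expressed imprinted locus, went from 4344 to 2725 counts in the authors' deposited table, or -0.65, with -0.56 after subtraction. Of 23 imprinted genes it was the 1 that passed after subtraction, while Magel2, its neighbour in the locus, was at 0.46 and Ube3a at -0.29 in the authors' deposited table. Clk1, a kinase of splicing factors, went from 2853 to 2020 counts there, or -0.47 with an implied standard error of 0.07. After subtraction it was -0.32 with an adjusted p of 6.2e-04. Its relative Clk4 fell to a log2 value of -0.27 in the authors' deposited table, and its subtracted value of -0.16 did not pass.

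Kcnj2, an inward rectifier potassium channel that holds the resting potential, went from 240.8 to 149.6 counts in the authors' deposited table, or -0.65, and Tgtp2, an interferon-inducible GTPase, from 37.0 to 13.2, or -1.44. Both passed after subtraction, at -0.53 and -1.35. Zfp82, a zinc finger gene, was at -0.71 and Nrep, a neuronal regeneration-related protein, at -0.39 in the authors' deposited table, and both passed both ways. Wnt9a, a Wnt ligand, fell by 0.50 there and was at -0.60 after subtraction. The predicted genes Gm14391 and Gm27029 fell, at -0.46 and -0.69 in the authors' deposited table, and passed both ways. Rock1, Cntn3, Cadm2 and Kitl, with deposited values between -0.40 and -0.26 in the authors' deposited table and GC contents between 38.2% and 42.1%, did not pass after subtraction.

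Lists of synaptic, channel and structural genes had calls as deposited and few or none after subtraction. Over all genes 4.65% rose and 2.29% fell as deposited, and 0.807% passed after subtraction. With that share, 0 calls after subtraction in a list of this size is close to the background. Postsynaptic scaffolds, with a median GC content of 55.4%, rose in 9 of 33 cases in the authors' deposited table, and 1 passed after subtraction, Homer1. Shank1, a scaffold of the postsynaptic density, went from 10247 to 12450 counts there, or 0.31, and its subtracted value was 0.05. Shank3 and Baiap2 at 0.30 and 0.24 in the authors' deposited table came to 0.06 and 0.10.

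Glutamate receptors and auxiliary subunits rose in 8 and fell in 1 of 35 cases in the authors' deposited table, among them Grik5 at 0.27, Grin1 at 0.20 and Cnih2 at 0.31, and 0 passed after subtraction. GABA and glycine receptors, with a median GC content of 43.2%, fell in 3 of 18 cases, among them Gabrb2 at -0.19 in the authors' deposited table. Its subtracted value was -0.10, and 0 of the 18 passed. The opposite calls for excitatory and inhibitory receptors were made as deposited and not after subtraction, where 0.807% of all genes passed.

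Of 58 potassium channels 4 rose and 4 fell in the authors' deposited table, where 4.65% and 2.29% of all genes did. After subtraction 0 rose and 2 fell, Kcnj2 and Kcnj9, a G protein-gated subunit with a deposited value of -0.06 in the authors' deposited table and a subtracted value of -0.22. Calcium, sodium and HCN channels rose in 5 and fell in 1 of 34 cases there, led by Cacna1h at 0.35, and 1 fell after subtraction, the pacemaker channel Hcn2. Hcn2 stood at 1886 and 1989 counts in the authors' deposited table, 0.11 and not called, and at -0.22 after subtraction; with 65.2% GC its direction depends on the trend.

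As deposited 4.65% of all genes rose, and after subtraction 0.807% passed. For the lists below, 0 calls after subtraction is therefore close to the background. Axon guidance genes rose in 8 and fell in 3 of 64 cases in the authors' deposited table, with Plxna1 at 0.28 and Efna5 at -0.40, and 0 passed after subtraction. Collagens, laminins and basement membrane genes rose in 4 of 38 there, and 0 after. Histone-modifying enzymes rose in 4 of 44 in the authors' deposited table, led by the demethylase Kdm6b at 0.45, and 0 passed after. Heat shock proteins rose in 4 of 28 there, the inducible Hspa1a and Hspa1b at 0.68 and 0.63, the factor Hsf1 at 0.26 and Dnajb5 at 0.25, and 0 passed after subtraction; Hspa1a and Hspa1b are near-identical copies whose reads the authors' counting could split.

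Gadd45g and Gadd45b, small proteins linked to DNA demethylation and stress signalling, rose by 0.81 and 0.54 in the authors' deposited table, and their subtracted values of 0.61 and 0.42 had adjusted p-values of 0.064 and 0.17. The hnRNP and neuronal splicing list fell in 5 and rose in 1 of 45 cases there, among the falls Hnrnpr at -0.17 and Hnrnpu at -0.18, and 0 passed after subtraction. Of 357 zinc finger genes named Zfp, with a median GC content of 45.3%, 29 fell and 9 rose in the authors' deposited table, and 1 each way passed after subtraction. Of all genes, 2.29% fell and 4.65% rose as deposited, and 0.807% passed after subtraction. The mitochondrially encoded genes, the GC-poorest family at 37.1%, had values below 0 in 13 of 13 cases in the authors' deposited table, 0 of them called, where their median was -0.16, and it was 0.02 after subtraction.

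**Figure D3:**
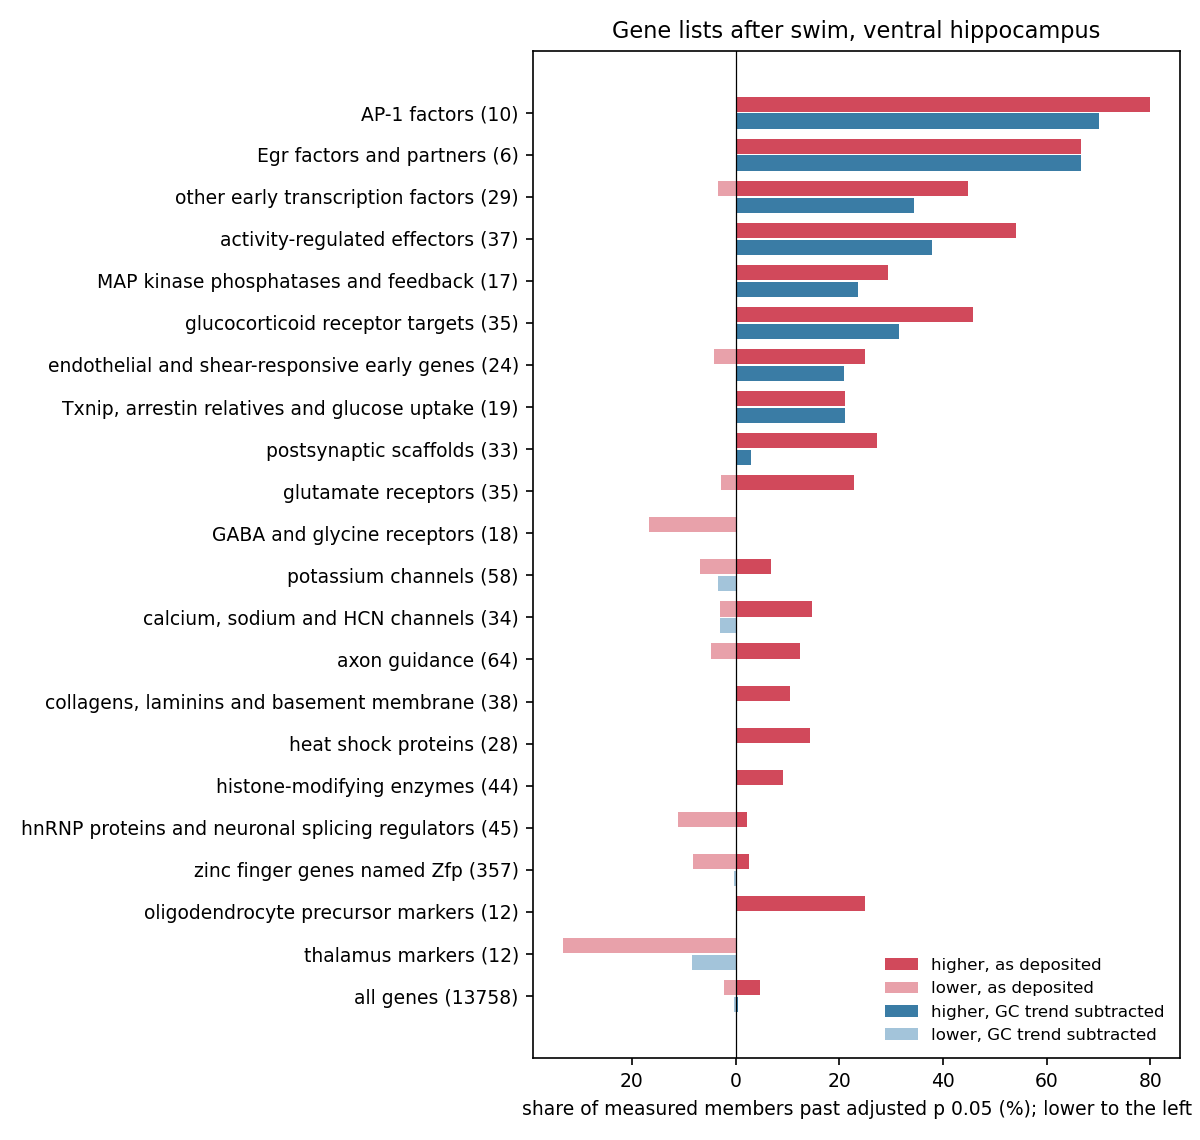
Share of measured members, in percent, that passed an adjusted p of 0.05 in 21 gene lists and over all genes (bottom row), with higher genes to the right of 0 and lower genes to the left; the number of measured members stands in parentheses. Red bars are as deposited and blue bars after the GC trend was subtracted, with paler shades for lower genes. The early, hormone-responsive, vascular and Txnip lists have long bars in both colours, while glutamate and GABA receptors, axon guidance, histone enzymes and heat shock proteins have no blue bar.

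Several lists gave few or no calls. Cold-inducible RNA-binding proteins passed in 0 of 5 cases on either scale, with Cirbp at 1110 and 1141 counts and Rbm3 at 2136 and 2027 in the authors' deposited table, log2 fold changes of 0.08 and -0.04. Cholesterol synthesis genes passed in 0 of 27. Of 87 cytosolic ribosomal proteins 1 rose in the authors' deposited table and 0 after subtraction, and of 23 genes of the unfolded protein response 1, Herpud1 at 0.20, and 0. Over all genes 6.94% passed as deposited and 0.807% after subtraction. With these shares, 0 calls after subtraction in lists of this size is close to the background, as is 0 of 5 as deposited.

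Markers of other tissues and cell types were measured beside these results. Of 16 choroid plexus markers 8 were measured and 0 passed on either scale; their median was 0.19 in the authors' deposited table, and their summed level was 196 CPM in Homecage and 217 in Swim. Ttr, its defining transcript, was at 690.0 and 1032 counts in the authors' deposited table (0.63, implied standard error 0.49, adjusted p 0.45). Blood cell markers, the hemoglobins among them, had a median of -0.50 over 6 genes and summed to 524 and 450 CPM, with 0 called. Ependymal markers had 0 of 9 called on either scale, and 9 of 9 lay above 0, from 0.11 to 0.46 in the authors' deposited table, with sums of 69.2 CPM and 78.4 CPM. Meningeal markers had 0 of 12 called, and 9 of 12 lay below 0 with a median of -0.16 as deposited. Astrocyte markers had 0 of 12 called. Of all genes, 6.94% passed as deposited and 0.807% after subtraction, so 0 calls in lists this short is close to that background. No measured marker of these lists was at 0 counts. The part of tissue composition in the results was not tested, and in bulk RNA fewer cells of a type and less RNA per cell cannot be told apart.

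Some thalamus markers fell. In the authors' deposited table, 4 of 12 fell and 0 rose, Slc17a6 at -0.47, Rora at -0.33, Synpo2 at -0.47 and Ntng1 at -0.22, with a list median of -0.23, and their summed level was 471 CPM in Homecage and 434 in Swim. After subtraction 1 passed, Slc17a6 at -0.40. Of all genes, 2.29% fell as deposited and 0.254% after subtraction. Slc17a6 encodes the vesicular glutamate transporter of thalamus and subiculum, and it is also in the subiculum list, where 1 of 8 fell. With the thalamus, choroid plexus, ependymal, meningeal and blood markers left out and the p-values adjusted again, 959 genes passed. This step removes only the marker genes themselves, so its count cannot show what tissue composition did to other genes. In ventral Restraint, against the same Homecage libraries, 0 of the 12 thalamus markers were called as deposited. The list median there was 0.07, with Slc17a6 at -0.37.

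Several neuronal and glial lists had members that rose as deposited, where 4.65% of all genes did. Of 12 dentate granule cell markers 2 rose in the authors' deposited table, C1ql2 and Plk5 at 0.42 each, of 12 CA1 markers 1, Fibcd1 at 0.25, and of 12 oligodendrocyte precursor markers 3, and 0 of these passed after subtraction. Oligodendrocyte markers rose in 2 and microglia markers in 1 of 12 there, and 0 after.

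Dorsal and whole-hippocampus libraries are separate from the ventral ones, with Homecage libraries of their own. Of the 73 risen genes called both ways, 70 are in the dorsal Swim table, and 61 of them (87.1%) were higher there, with a median log2 fold change of 0.32. Their counts in the authors' deposited table include 28 called higher, where 0.359% of all dorsal genes were. Of the 566 risen genes called as deposited only, 10.8% were higher in dorsal Swim, with a median of -0.15 and 0 called higher, against 51.9% of all genes. Fallen genes called as deposited only were higher in dorsal Swim in 87.5% of 287 cases. With the trend subtracted in the dorsal table as well, the shares that were higher became 88.6% for the risen genes called both ways (median 0.38), 44% for the risen genes called as deposited only (median -0.01) and 60.6% for the fallen ones (median 0.02). Over all genes the share was 51% after subtraction, and the opposite signs of the genes called as deposited only were much weaker on that scale. Those genes were chosen by losing their call on subtraction. Their median GC content was 58.7% for the risen and 41.5% for the fallen. As the dorsal fold changes run the other way with GC content (rank correlation -0.599), their dorsal signs are no separate check on the trend.

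In whole hippocampus, 66 of 72 risen genes called both ways (91.7%) were higher after swim, with a median of 0.46 and 37 called in the authors' deposited table, where 0.336% of all genes were called higher. Of the 567 called as deposited only, 60.7% were higher, with a median of 0.03, and 5 were called. After subtraction in the whole-hippocampus table these shares were 90.3% (median 0.46) and 39.7% (median -0.03), so the majority of the second set turned around. Because that set was chosen by losing its call on subtraction, this is no separate check on the trend either. Fallen genes called as deposited only were higher in 27.5% of 291 cases as deposited and in 46.4% after subtraction. Fallen genes called both ways were higher in 4 of 18 cases (22.2%), and 2 were called lower, against 0.0585% of all genes. For the fallen genes called both ways, dorsal tissue had 16, of which Hes5, Ndn and Wnt9a were called lower and Slc17a6 higher, where 0.0879% of all dorsal genes were called lower.

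**Figure D4:**
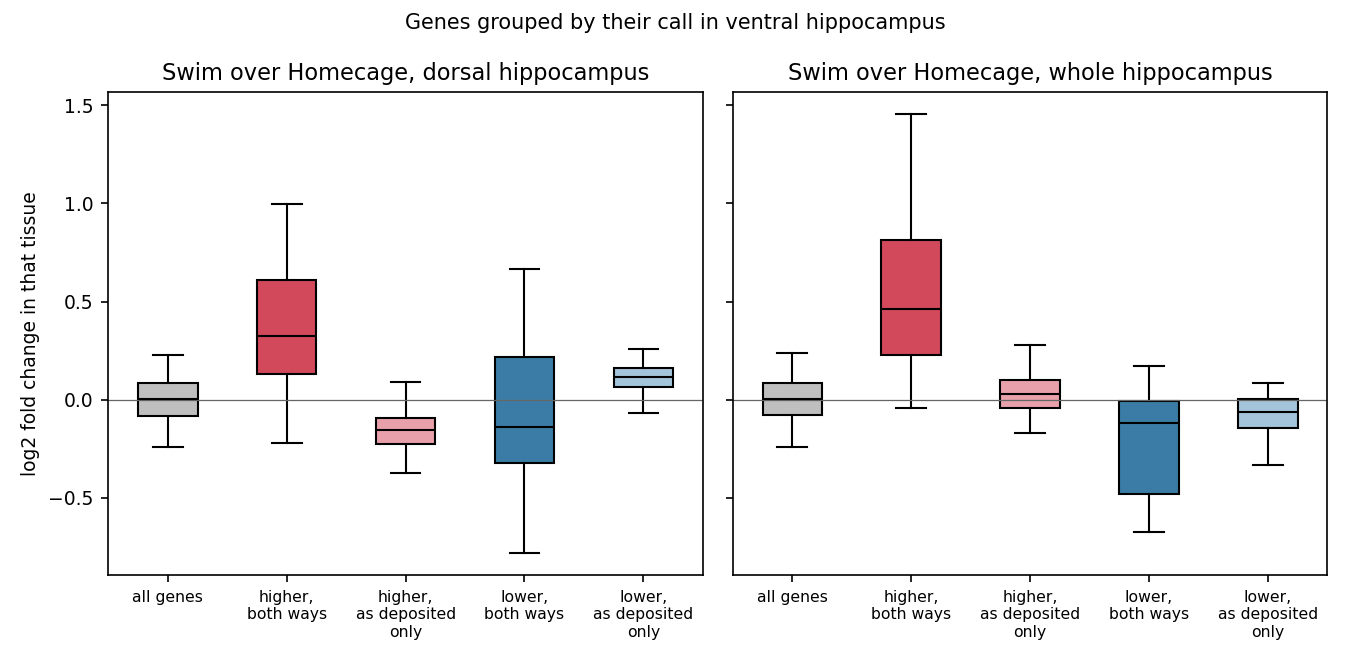
Log2 fold change after swim in dorsal (left) and whole hippocampus (right) for all genes and for the genes grouped by their call in ventral hippocampus (horizontal axis). Boxes span the quartiles with the median as a line, and whiskers reach from the 5th to the 95th percentile. The genes risen both ways have medians of 0.32 and 0.46, while those risen as deposited only lie mostly below 0 in dorsal tissue.

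Whether the ventral response differed from the dorsal one was tested gene by gene on the difference of the 2 log2 fold changes. The test takes both errors as independent and ignores any mouse that gave both a dorsal and a ventral library. As deposited 1383 of 13533 genes differed, which is 10.2%, 938 (6.93%) with the higher value in ventral and 445 (3.29%) in dorsal tissue. After subtraction of each table's own trend 27 differed (0.2%), 10 higher (0.0739%) and 17 lower (0.126%), and 20 genes differed on both scales in the same direction. The rank correlation with GC content was 0.696 in the ventral and -0.599 in the dorsal table.

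Slc17a6 differed most surely. It went from 724.4 to 511.4 counts in ventral tissue and from 275.6 to 455.8 in dorsal tissue, -0.47 and 0.66 on the log2 scale, in the authors' deposited table. The difference was -1.14 as deposited and -1.002 after subtraction, with adjusted p-values of 8.0e-06 and 6.5e-04. Tshz2, a subicular and cortical zinc finger factor, Cbln2, a synapse organiser, Myoc, a secreted protein of astrocytes and meninges, Rxfp1, the relaxin receptor, and Vwc2l also had the lower value in ventral tissue. In the authors' deposited table their ventral values ran from -0.53 to -0.22 and their dorsal values from 0.63 to 0.68. After subtraction each still differed. Against the same Homecage libraries, the deposited ventral values of Slc17a6 were also below 0 after Handling and Restraint, at -0.23 and -0.37. So were those of the other genes named here, from -0.61 to -0.12. In dorsal tissue Slc17a6 was at 0.004 and 0.15, Rxfp1 at -0.14 and 0.12 and Myoc at 0.34 and 0.30. What the shared Homecage libraries or the dissection added to these differences was not tested.

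Among the early transcription factors, Egr3 and Btg2 had the higher value in ventral tissue on both scales. Egr3, at 0.52 in ventral and -0.22 in dorsal tissue in the authors' deposited table, differed by 0.74 as deposited and 0.66 after subtraction. Btg2, at 0.81 and 0.31 there, differed by 0.50 and 0.53. Sp9, a factor of interneuron precursors, went from 43.2 to 72.4 counts in ventral tissue in the authors' deposited table and differed by 1.44 after subtraction. Ccno and the predicted gene Gm4737 also had the higher value in ventral tissue, with differences of 1.42 and 2.51 as deposited and 1.16 and 2.45 after subtraction. Handling and Restraint, against the same Homecage libraries, gave a similar split as deposited for most of these genes. Gm4737 was at 0.93 and 0.64 in ventral and at -1.68 and -1.735 in dorsal tissue. Ccno was at 0.34 and 0.43, and at -0.43 and -0.47. Sp9 was at 0.34 and 0.57, and at -0.17 and -0.71. Egr3 was at 0.52 and 0.46, and at 0.08 and -0.20. Btg2, with little split after Handling, was at 0.36 and 0.95, and at 0.29 and 0.47. The part of the shared Homecage libraries in these differences was not tested.

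For most early genes the regional difference did not pass after subtraction. Of 10 AP-1 factors 6 differed as deposited, all higher in ventral tissue, and 0 after subtraction, and of 6 Egr factors and partners 2 and 1. Fos was at 2.06 in ventral and 1.45 in dorsal tissue in the authors' deposited table, a difference of 0.60 with an adjusted p of 0.024, and 0.50 with 0.44 after subtraction. Junb, at 1.46 and 0.06 there, differed by 1.40 as deposited and by 0.89 after subtraction, where the adjusted p was 0.25. Of 35 glucocorticoid receptor targets 2 had a higher and 1 a lower ventral value as deposited and 0 after subtraction. Over all genes 10.2% differed as deposited and 0.2% after subtraction. The counts for these targets, and 0 calls after subtraction in lists this short, are close to that background. Sgk1 was close in both parts, at 0.90 and 0.93 in the authors' deposited table. Hes5 fell in both, at -1.19 and -1.71 there, and its difference of 0.53 did not pass. Ndn fell in both as well, at -0.65 and -0.78 in the authors' deposited table.

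**Figure D5:**
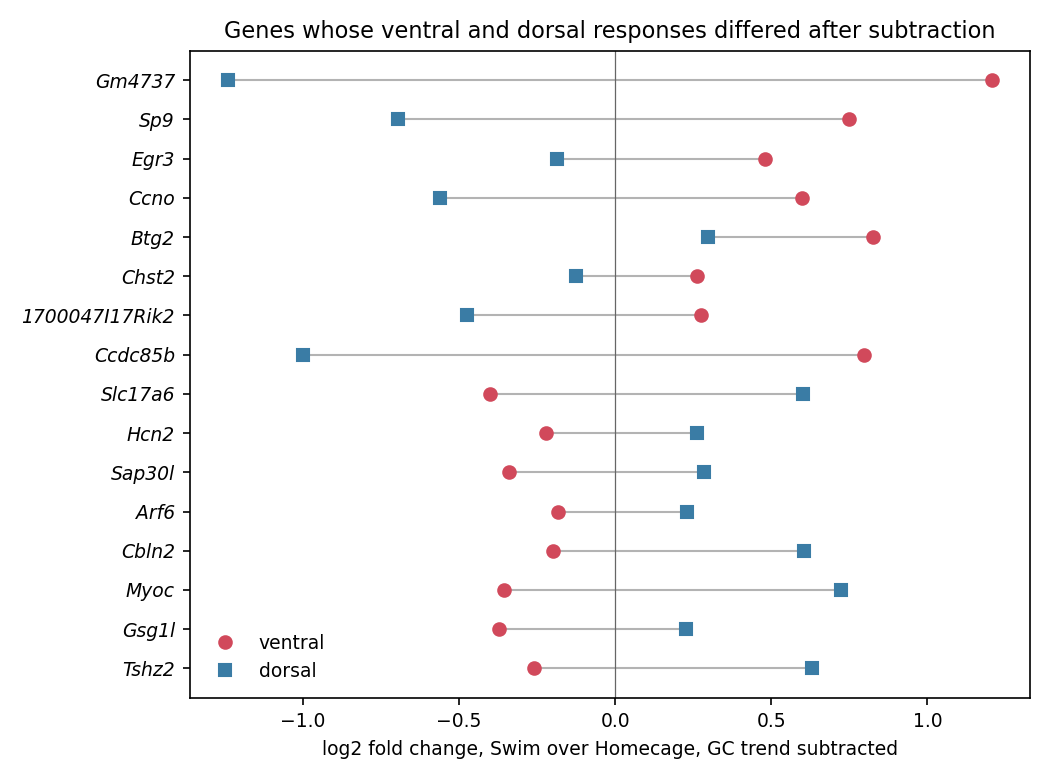
Log2 fold change after swim with the GC trend subtracted (horizontal axis) in ventral (red circles) and dorsal hippocampus (blue squares) for the 16 genes named from the test of the difference (vertical axis), joined by grey lines. The upper 8 have the higher value in ventral tissue and the lower 8 in dorsal tissue, with Slc17a6 at -0.40 and 0.60.

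Against whole hippocampus, 0 of 13603 genes differed from the ventral response as deposited or after subtraction in the normal test of the difference, with 942 and 554 at an unadjusted p under 0.05. Whole tissue contains the ventral part, and the libraries are separate.

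Swim and Restraint in ventral tissue share the Homecage libraries, so their values are set side by side. In the authors' deposited table, 329 genes passed for Restraint (2.39%). Fos was at 2.06 after Swim and 2.01 after Restraint, Egr1 at 0.99 and 0.75, Arc at 1.03 and 0.93, Sgk1 at 0.90 and 1.00 and Per1 at 0.72 and 0.50 in the authors' deposited table. Ventral Handling shares these Homecage libraries too. After Handling, Fos was at 2.02, Egr1 at 1.07, Arc at 1.27, Sgk1 at 0.50 and Per1 at 0.56 as deposited. Swim was not tested against Handling. The direct test of the difference between Swim and Restraint passed for 1 of 13704 genes (0.0073%) as deposited, with 141 at an unadjusted p under 0.05, and for 2 (0.0146%) after subtraction. These errors count the shared Homecage libraries as if separate, which makes them too large where the rest is independent.

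The gene that differed on both scales was Clk1, at -0.47 after Swim and 0.07 after Restraint in the authors' deposited table, a difference of -0.54 with a standard error of 0.10 and an adjusted p of 2.1e-04. In the dorsal and whole-hippocampus libraries, which are separate from these, it was at -0.29 and -0.68 after swim in the authors' deposited table, and neither passed there. After subtraction its values were -0.41 and -0.60. On that scale, of 14 Clk and related splicing kinases, 1 was called lower in dorsal tissue and 0 in whole hippocampus. The other gene, after subtraction, was Klf2, at 0.80 after Swim and 1.66 after Restraint in the authors' deposited table, with a difference of -0.97 after subtraction and an adjusted p of 0.0204. The vascular early genes Apold1, at 1.77 and 2.76, Klf4, at 0.73 and 1.39, and Cyr61, at 1.31 and 1.94 there, had the same order, and their differences did not pass.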

How the data were processed

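Total RNA was extracted, enriched for poly(A) and made into TruSeq libraries, per the labels' protocols. Bowtie 0.12.2 and the mouse build mm8 are named in the submitters' processing notes; for the counter and the statistical test behind the tables, the entry is not given in the sources used here. Per the file headers, each deposited table holds the mean expected counts of both groups, a ratio (fold change), its log2 value, and a p-value with its adjusted p, all made by the authors. Mean counts of groups carry no values of single libraries, so the count test planned for libraries could not be run and the authors' adjusted p at 0.05 was used. The replicate spread behind it is the authors', and whether it is biological or technical is not stated beyond the 5 mice of each condition.

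From these values the implied standard error was computed as the absolute log2 fold change divided by the normal quantile of its p. The trend on GC content was a lowess fit (fraction 0.3) to transcript GC content, from GENCODE M21 transcripts of GRCm38, known for 99.78% of genes; it was subtracted, the error kept, and p-values adjusted again by Benjamini-Hochberg. Differences between 2 fold changes were tested with a normal test on both errors, adjusted over all genes. The 147 repeated entries of a gene ID were dropped, leaving 13758 genes. The authors' fold changes are offset from the ratio of the means by 0.035 on the log2 scale. Promoters and motif letters came from RefSeq windows on GRCm38.p6. Scripts were tested on simulated data and ran in Python 3.11.15 with pandas 2.3.3, scipy 1.17.1 and statsmodels 0.14.6.

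The gene lists, the members and the tests were chosen with earlier results of these data known. Genes are named by rule: those of lowest adjusted p and largest change, those of lowest p after subtraction, up to 6 of each list (all where at most 12 are measured), up to 8 each way for each difference, and a fixed set of stress genes. Alternatives were another GC measure, a length trend, total-count and median scaling, a minimum mean of 100 counts, an adjusted p of 0.01, a minimum log2 fold change of 0.3, repeated entries kept, and marker lists left out. Some genes that the rule names are not reported here.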

Additional observations from a re-analysis of the deposited data

Results flagged for a closer look

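The response to swim differed between ventral and dorsal hippocampus for 1383 genes as deposited and for 27 after the trend on GC content was subtracted in each table, by the normal test of the difference. Values below are ventral minus dorsal log2 fold changes of those genes among the 8 of lowest adjusted p each way that the text describes; the others are not listed. As deposited, the higher ventral values were Gm4737 at 2.51, Egr4 at 1.55, Ccno at 1.42 and Shank1 at 0.63. The lower ones were Rxfp1 at -1.19, Slc17a6 at -1.14, Vwc2l at -1.13 and Nrep at -0.61. After subtraction, Gm4737 was at 2.45, Sp9 at 1.44, Ccno at 1.16, Egr3 at 0.66 and Btg2 at 0.53. Myoc was at -1.08, Slc17a6 at -1.002, Tshz2 at -0.89, Cbln2 at -0.81 and Hcn2 at -0.48. The part of the Homecage libraries of each region in these differences was not tested.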

How the results depend on the processing

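The 955 genes called after swim became 111 with the trend on GC content subtracted, and 148 with the GC content of the longest transcript, an alternative chosen after seeing the data. An adjusted p of 0.01 left 263 and a minimum absolute log2 fold change of 0.3 left 347. The count stayed within 1.5 times under the length trend, total-count scaling, median centring, a minimum mean of 100 counts, repeated entries and the left-out markers, from 933 to 1017. Total-count scaling gave 576 higher and 385 lower genes. The 1383 genes that differed between ventral and dorsal tissue became 27 with the GC trend subtracted, 48 with the longest transcript's GC content and 422 at an adjusted p of 0.01. The 1 gene that differed between Swim and Restraint became 2 under either GC subtraction. The rank correlation with GC content was 0.680 with the longest transcript and 0.760 among genes with both means of at least 100 counts. Hcn2, not called as deposited, went from 0.11 to -0.22 under the GC subtraction and -0.20 with the longest transcript. The cause of these shifts was not tested. Depth limits low-count genes such as Atf3, Maff and Tgtp2. No paired analysis was possible because the tables hold group means only; for the same reason no library could be left out and DESeq2 was not run.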
